A study of Mus musculus with 24 samples.

Results

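Gene expression was compared between Siglec F-low alveolar macrophages of asbestos-exposed young mice and Siglec F-high alveolar macrophages of naive young mice. These are 2 of the 6 groups of the series and 8 of its 24 libraries, 4 on each side, chosen by their sample labels alone. All mice were C57BL/6J and no genetic change is named for any group. The young mice were 8 to 12 weeks old and the old mice above 18 months. The exposed mice had received asbestos 28 days before, and the naive mice carry no treatment in their labels. Exposure and sort differ together between the 2 groups, so their contributions cannot be told apart from these 8 libraries. Young asbestos Siglec F-high cells share the exposure with one side and the sort with the other, and their values are given beside both. The same comparison in old mice, old asbestos Siglec F-low against old naive Siglec F-high, comes at the end. The labels name the cells by Siglec F only, while the series text speaks of tissue-resident and monocyte-derived alveolar macrophages. No label says whether replicates are separate animals or pools, so the p-values measure the spread between libraries of a group, which may be technical in part. That spread was estimated over the 22 libraries of the fit, those of old mice included.

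Alveolar macrophages live on the air side of the lung, where they clear surfactant and particles. In the resting lung they renew themselves and carry much Siglec F, a lectin that binds sialic acid. After injury, blood monocytes enter the alveoli and become macrophages that at first carry little of it. Asbestos fibres persist in the lung and cause patchy fibrosis, and monocyte-derived macrophages of fibrotic lungs are known for matrix-degrading enzymes, growth factors that act on fibroblasts, and proteins that handle lipid.

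The 8 libraries held 14385568 to 17994661 counts on 17069 to 18820 genes, and 0.256 to 0.491% of counts fell on rRNA-related genes. The first principal component, with 59.0% of the variance, separated the groups. Pearson correlations of log2 CPM across genes were 0.981 to 0.992 within the groups and 0.949 to 0.968 between them. CPM are counts scaled by TMM to a common library size. Libraries stood apart on different measures. Naive replicate 2 lay farthest from its group across all genes. Its second component, with 12.0% of the variance, was -39.7 beside 1.58 to 17.2 in the other naive libraries. That component also split the Siglec F-low group, at -18.3, -7.61, 15.3 and 15.2 in replicates 1 to 4. Replicates 3 and 4 of both groups thus lay together on it, with naive 3 and 4 at 16.3 and 17.2. Naive replicate 2 had the fewest genes with a count and the highest share of rRNA-related counts of the 8 libraries. It correlated at 0.981 to 0.982 with the others of its group, which correlated at 0.986 to 0.992 among themselves. Naive replicate 1 stood apart on single genes: of 9525 genes that averaged 5 CPM or more, 12 were over 2 times above and 23 over 2 times below each of the 3 others, with Marco and Cd93 among the former and H2-Aa, Epcam, Itgad and Tgfb2 among the latter. Naive replicate 2 had 14 and 7 such genes, and without it 5102 genes passed the test described next, in place of 4729. Siglec F-low replicate 2 had 5 and 2, and its 5 high ones were Ccl17, Ccl24, Retnla, Rnase2a and Sftpc. For several genes, changes are also given without both naive replicate 1 and Siglec F-low replicate 2.

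Of 13629 genes tested with edgeR's quasi-likelihood test, 4729 (34.7%) had a Benjamini-Hochberg adjusted p under 0.05, the threshold for a change throughout; genes past it are the called genes of the plots. In young asbestos Siglec F-low cells 2491 (18.3%) were higher and 2238 (16.4%) lower. The higher genes included the larger changes. At 2-fold or more 716 genes (5.25%) were higher and 411 (3.02%) lower, and at 8-fold or more 219 and 18. The groups of 4 did not overlap in 3570 of the genes past the threshold and in 29.6% of all genes tested. The median log2 fold change over all genes was -0.01, and the median standard error 0.13. Without naive replicate 1 and Siglec F-low replicate 2, 3895 genes passed. With all 24 libraries in the fit, including 2 libraries of other groups that stand apart, 1666 passed, and all 1666 were among the 4729 in the same direction. In that wider fit 44 of the named genes past the threshold here no longer passed it, among them Abca1, Axl, Cd2, Cd55, Cxcl14, Fth1, Itgax, Mki67, Mrc1, Plac8, Pparg, Sftpc, Tgfb1, Tgfbr1 and Tnfsf13b, and the counts of members past it fell for 23 of 33 gene lists by over 1.5 times.

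The plot of fold change against level shows how the larger changes lie on the higher side.

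**Figure D1:**
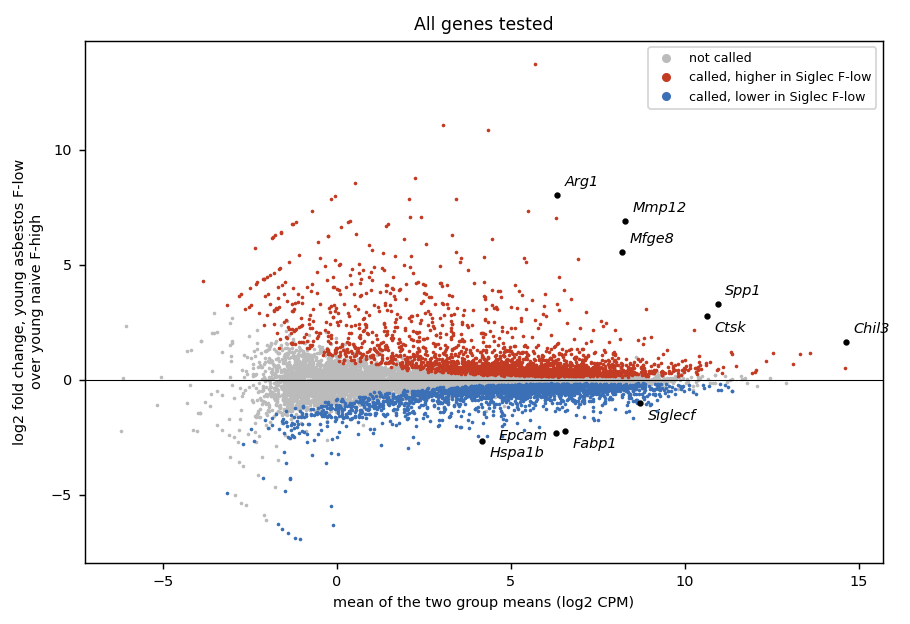
Log2 fold change of young asbestos Siglec F-low over young naive Siglec F-high cells (vertical) against the log2 of the mean CPM of the 2 groups (horizontal), 1 point per gene tested; red and blue points passed the threshold higher and lower, grey points did not. The red points reach farther from 0 than the blue ones, with Arg1, Mmp12 and Mfge8 far above 0, Chil3 at the highest level, and Fabp1, Epcam and Hspa1b below -2.

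Siglecf, the gene of the sort marker (ENSMUSG00000039013, chromosome 7, 43351341 to 43359531, plus strand, GRCm38 as for all positions here), was at 571, 651, 519.8 and 522 CPM in naive replicates 1 to 4 and at 309, 262, 250.1 and 296 CPM in Siglec F-low replicates 1 to 4. The groups did not overlap, and the log2 fold change was -1.02 ± 0.10 (SE; adjusted p 3.35e-08). Changes given below as a value ± an error are log2 fold changes of Siglec F-low over naive cells with their standard errors, from the same edgeR test. Young asbestos Siglec F-high cells were at 480.2, 505 and 461 CPM in the 3 libraries of the fit. The transcript was lower where the sort was for low protein, but remained well detected, at 279.5 ± 27.9 CPM (SD, n = 4).

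Markers of resident alveolar macrophages moved in both directions. Of 26 genes 9 were higher and 12 lower, and the median log2 fold change was 0.08. Fabp1, a fatty acid-binding protein, was at 191, 187, 123 and 128 CPM in naive and 39.2, 33.4, 32.7 and 27.9 CPM in Siglec F-low cells (-2.24 ± 0.23, adjusted p 9.23e-08). It fell the most of the list, with no overlap. Ear1, an eosinophil-associated ribonuclease with close paralogs between which reads may be split, fell by 1.38 ± 0.19. Cidec, a lipid droplet protein, fell by 1.36 ± 0.16, and the keratin Krt79 fell by 1.06 ± 0.15. Fabp4, another fatty acid-binding protein, rose, from 96.1, 66.9, 41.3 and 36.3 CPM to 347, 305, 227 and 188 CPM (2.15 ± 0.25, adjusted p 6.78e-07). These 2 genes of one family changed in opposite directions. Chil3, a secreted chitinase-like lectin whose reads may be shared with Chil4, was at 11186 to 15604 CPM against 32654 to 44267 CPM (1.64 ± 0.12, adjusted p 3.61e-10). It alone took 1.30% of naive and 3.72% of Siglec F-low counts. Car4, a carbonic anhydrase, was at 299 to 630.1 CPM against 882 to 1179 CPM (1.30 ± 0.22, adjusted p 7.22e-05). Itgax, the CD11c integrin chain, rose by 0.46 ± 0.07, and Mrc1, the mannose receptor, rose by 0.30 ± 0.07. Pparg, the nuclear receptor that directs alveolar macrophage development, overlapped at 163 to 208 and 195 to 267 CPM. Its difference of 0.28 ± 0.09 (adjusted p 0.023) became 0.18 (adjusted p 0.2) without naive replicate 1 and Siglec F-low replicate 2.

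Marco, a scavenger receptor for particles, turns on 1 library. It was at 644, 137, 136 and 128 CPM in naive replicates 1 to 4 and at 666, 436, 546 and 435 CPM in Siglec F-low cells. Naive replicate 1 lay with the Siglec F-low libraries. With all 8 libraries the difference was 0.99 ± 0.42 (adjusted p 0.068), and without naive replicate 1 and Siglec F-low replicate 2 it was 2.04 (adjusted p 6.92e-05). The plot of the resident list shows its members on both sides of 0.

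**Figure D2:**
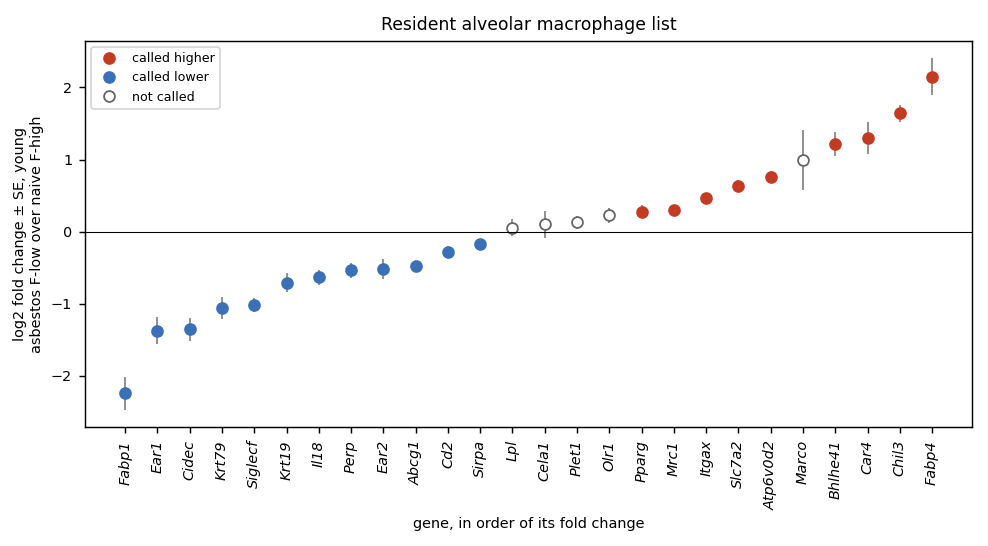
Log2 fold change with its standard error (bars) for each of the 26 genes of the resident alveolar macrophage list, in order of size; filled points passed the threshold and open points did not. The list runs from Fabp1 at -2.24 to Fabp4 at 2.15, and Marco has the widest bar.

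Of 23 blood monocyte markers 4 were higher and 9 lower, with a median of -0.12. Without Siglec F-low replicate 4, 8 of them passed. Itgam, the CD11b integrin chain, was at 7.63, 11.3, 10.1 and 10.8 CPM in naive and 43.3, 33.1, 49.4 and 47.7 CPM in Siglec F-low cells (2.13 ± 0.18, adjusted p 3.36e-09). It rose without overlap. Fn1, fibronectin, was at 1327 to 1869 against 3291 to 3956 CPM (1.13 ± 0.20, adjusted p 1.57e-04). Ccr2, the receptor that draws monocytes out of the blood, overlapped at 9.97 to 19.4 and 9.65 to 17.5 CPM (-0.12 ± 0.20, adjusted p 0.695). Cx3cr1, the fractalkine receptor, was at 2.02 to 3.71 and 2.9 to 4.94 CPM (0.46 ± 0.25, adjusted p 0.161). Ly6c2, a marker of classical monocytes, was at 0.517 to 0.928 and 0.121 to 0.786 CPM. On the lower side, Fcgr1, the high-affinity IgG receptor, fell by 1.08 ± 0.14. Plac8 fell by 1.10 ± 0.34, and missed the threshold without Siglec F-low replicate 4 (-0.86, adjusted p 0.0553).

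Genes more typical of interstitial macrophages were higher in 14 and lower in 1 of 21 cases, with a median of 1.30. The chains of C1q, the recognition unit of complement, each rose. C1qb was at 2.34, 3.44, 3.61 and 4.08 CPM in naive and 43, 53.4, 44.9 and 52.7 CPM in Siglec F-low cells (3.85 ± 0.19, adjusted p 1.42e-12). C1qa rose by 3.26 ± 0.19 and C1qc rose by 3.04 ± 0.20. C3ar1, the receptor of the complement fragment C3a (ENSMUSG00000040552, chromosome 6, 122847138 to 122856161, minus strand), was at 0.575 to 0.708 CPM against 18.9 to 25.2 CPM (5.12 ± 0.24, adjusted p 7.98e-13). The groups of C1qb and C3ar1 did not overlap, a condition of the rule that named genes of smallest p. As levels per kilobase of exon, Siglec F-low cells held 44.6 CPM of C1qb, beside 476 of Itgax and 100.2 of Siglecf.

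Genes described in macrophages of scarred tissue had the highest median among the functional lists, 1.83, with 21 of 28 members higher and 0 lower. Arg1, arginase, which turns arginine into ornithine and urea (ENSMUSG00000019987, chromosome 10, 24915221 to 24927484, minus strand), was at 0.436, 0.675, 0.619 and 0.747 CPM in naive and 144, 224, 139 and 138 CPM in Siglec F-low cells (8.02 ± 0.31, adjusted p 2.75e-14). Mmp12, macrophage elastase (ENSMUSG00000049723, chromosome 9, 7344381 to 7369499, plus strand), was at 3.92, 4.39, 6.5 and 5.75 CPM against 705, 601, 613 and 560.5 CPM (6.90 ± 0.64, adjusted p 1.83e-08). Both genes were low in every naive library and high in every Siglec F-low library. Spp1, osteopontin, a secreted adhesion protein (ENSMUSG00000029304, chromosome 5, 104435118 to 104441050, plus strand), was at 471, 399, 285 and 293 CPM against 3610, 5049, 2588 and 3079 CPM (3.31 ± 0.21, adjusted p 7.28e-11). Gpnmb, a glycoprotein of lysosomes and the cell surface, was at 692, 377, 369 and 370.1 CPM against 1936 to 2073 CPM (2.16 ± 0.22, adjusted p 8.06e-08), with naive replicate 1 above the other naive libraries, and rose by 2.43 without naive replicate 1 and Siglec F-low replicate 2. Trem2, a receptor for lipids and dying cells, was at 33.6 to 58.2 CPM against 193 to 232 CPM (2.25 ± 0.14, adjusted p 5.48e-11). Ctsk, the collagen-degrading cathepsin K, was at 340.0 to 476 CPM against 2397 to 3181 CPM (2.76 ± 0.18, adjusted p 8.73e-11). Cd63, a tetraspanin of late endosomes, rose by 3.07 ± 0.20. Igf1, an insulin-like growth factor, rose by 3.52 ± 0.23, and Apoe, a carrier of lipids, rose by 1.63 ± 0.16. Vim, the intermediate filament vimentin and the most abundant member in naive cells by CPM, differed by 0.09 ± 0.07 and missed the threshold.

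The plot of levels by library sets several of these genes beside young asbestos Siglec F-high cells.

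**Figure D3:**
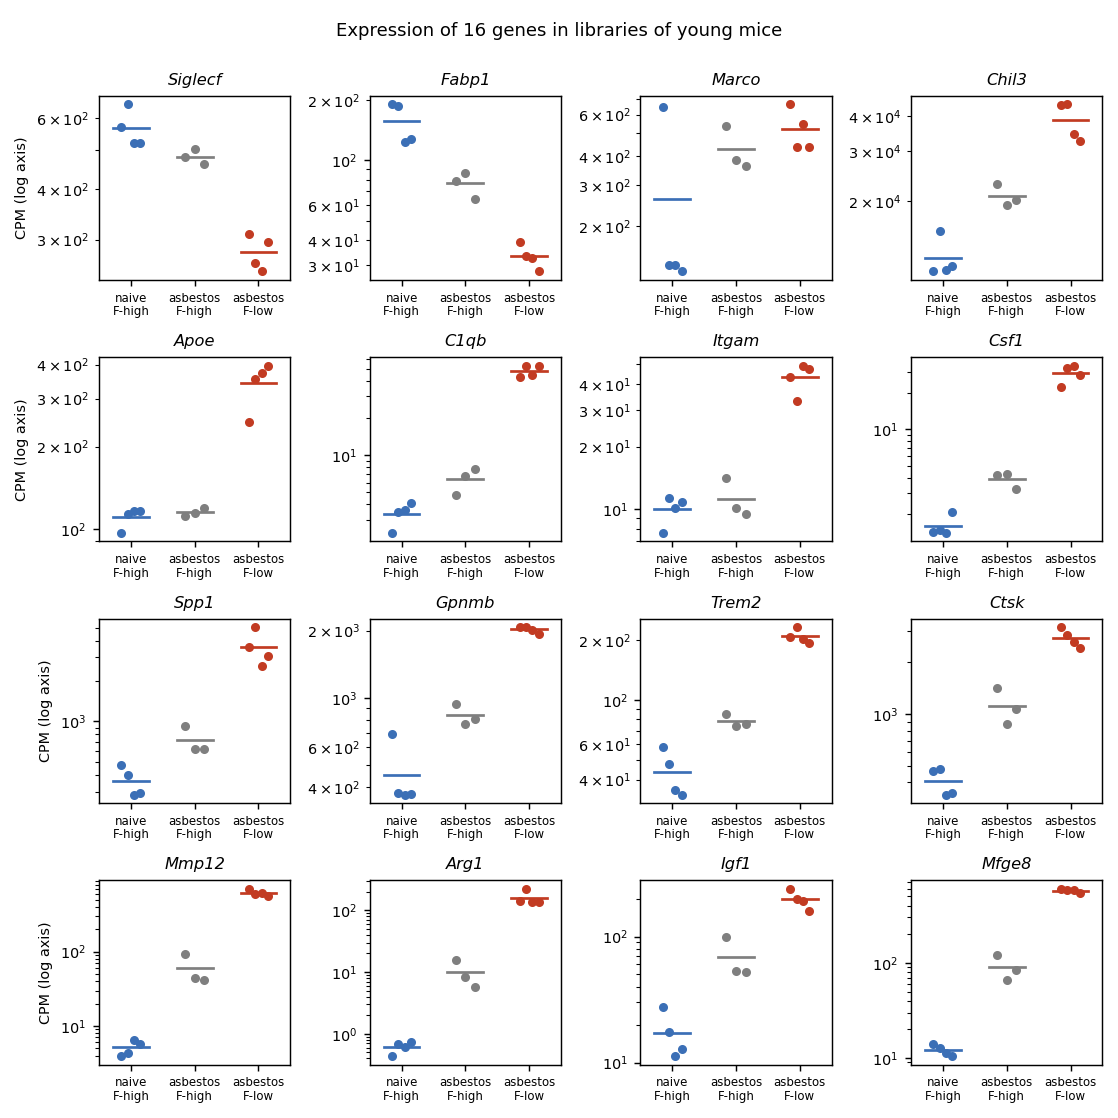
CPM on a log axis for 16 genes in young naive Siglec F-high (blue, 4 libraries), young asbestos Siglec F-high (grey, 3 libraries) and young asbestos Siglec F-low cells (red, 4 libraries); points are libraries and lines are group means. Arg1, Mmp12 and Mfge8 are lowest in naive and highest in Siglec F-low cells, both Siglec F-high groups of Itgam lie together, and 1 naive library of Marco lies with the asbestos groups.

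Growth factor and matrix genes had 17 of 31 tested members higher and 4 lower, with a median of 1.06, and 42 were listed. Mfge8, which bridges dying cells to integrins on phagocytes (ENSMUSG00000030605, chromosome 7, 79133768 to 79149060, minus strand), had the smallest p of all genes. It was at 14, 12.9, 11.2 and 10.5 CPM in naive and 602, 585, 577 and 536 CPM in Siglec F-low cells (5.56 ± 0.21, adjusted p 2.16e-14). Pdgfa, a platelet-derived growth factor chain, was at 0.135 to 0.258 CPM against 5.97 to 10.3 CPM (5.37 ± 0.38, adjusted p 2.84e-10). Inhba, an activin subunit, rose by 4.14 ± 0.55 and Hbegf, a ligand of the EGF receptor, rose by 4.13 ± 0.53. Ecm1, a secreted matrix glycoprotein, was at 13.2 to 15.2 CPM against 98.7 to 118 CPM (2.87 ± 0.13, adjusted p 3.24e-13). The groups of Mfge8 and Ecm1 did not overlap, which the rule for naming genes of smallest p required. Among TGF-beta ligands, Tgfb2 was at 2.72, 8.3, 10 and 9.83 CPM in naive and 2.2, 1.15, 1 and 1.27 CPM in Siglec F-low cells (-2.47 ± 0.39, adjusted p 2.68e-05). The lowest naive value was that of replicate 1, and the change was -2.67 without naive replicate 1 and Siglec F-low replicate 2. Tgfb1 was at 466 to 499.6 CPM against 409 to 457 CPM (-0.18 ± 0.05, adjusted p 0.0105), and differed by -0.15 (adjusted p 0.0791) without naive replicate 1 and Siglec F-low replicate 2.

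Metalloproteinases and their inhibitors had 13 of 18 tested members higher and 0 lower, with a median of 0.98. Mmp14, a membrane-bound protease that activates other members, was at 0.49, 0.743, 0.567 and 0.575 CPM in naive and 17, 23.3, 28 and 24.9 CPM in Siglec F-low cells (5.29 ± 0.28, adjusted p 4.28e-12). Mmp19 was already expressed in naive cells, at 209.8 to 237 CPM against 599 to 699 CPM (1.56 ± 0.15, adjusted p 2.46e-08). Adam8, a membrane protease of myeloid cells, rose by 3.09 ± 0.17. Timp1, an inhibitor of these enzymes, was at 0.172 to 0.876 CPM against 4.44 to 6.81 CPM (3.52 ± 0.40, adjusted p 3.71e-07). Per kilobase, the level in Siglec F-low cells was 188 CPM for Mmp19, 85.7 for Mmp12 and 3.91 for Mmp14.

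Promoters were read from RefSeq (GRCm38.p6), which had an entry for 10082 of the 13629 genes tested. The 250 bases before the start were searched on both strands for the letters of AP-1 (TGANTCA, which reads the same on both strands), the cyclic AMP response element (TGACGTCA), a MAF core element (TGCTGAC), the E-box (CACGTG) and PU.1 (GAGGAAGT). A MAF core element can share its last 4 letters with an AP-1 match. AP-1 stood in 44 of 520 promoters (8.46%) of genes at least 2-fold higher, in 6 of 259 (2.32%) of genes at least 2-fold lower and in 418 (4.15%) of all 10082. In the same order the shares were 4.23, 1.54 and 2.82% for PU.1, 7.69, 6.18 and 8.35% for the E-box, 3.27, 1.93 and 2.98% for the MAF core element, and 1.15, 1.93 and 2.74% for the cyclic AMP element. These shares are descriptions with no test, and a match is not a bound site. The first 3 promoters printed here hold an AP-1 match and the other 2 a PU.1 match, in capitals. They were chosen, from genes that rose by 2-fold or more, because they hold a match. The promoters of Mfge8, C1qb, Gpnmb, Ctsk, Pdgfa and Mmp14, whose genes also rose, hold none of the 5 motifs. C3ar1 is read from chr6:122856158-122856407, minus strand, Ecm1 from chr3:95739570-95739819, minus strand, Trem2 from chr17:48346151-48346400, plus strand, Mmp12 from chr9:7344147-7344396, plus strand and Fbp1 from chr13:62888283-62888532, minus strand. Each line runs from the base farthest from the start to the base next to it.
C3ar1: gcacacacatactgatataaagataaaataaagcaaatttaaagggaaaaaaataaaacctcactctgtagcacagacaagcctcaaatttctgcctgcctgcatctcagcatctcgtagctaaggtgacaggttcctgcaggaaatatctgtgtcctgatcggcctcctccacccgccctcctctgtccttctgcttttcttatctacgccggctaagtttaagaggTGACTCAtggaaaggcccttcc
Ecm1: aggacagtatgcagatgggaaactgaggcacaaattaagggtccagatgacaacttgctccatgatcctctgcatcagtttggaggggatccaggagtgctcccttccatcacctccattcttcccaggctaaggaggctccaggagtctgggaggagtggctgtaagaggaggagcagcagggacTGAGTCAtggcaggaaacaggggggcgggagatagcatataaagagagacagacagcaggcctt
Trem2: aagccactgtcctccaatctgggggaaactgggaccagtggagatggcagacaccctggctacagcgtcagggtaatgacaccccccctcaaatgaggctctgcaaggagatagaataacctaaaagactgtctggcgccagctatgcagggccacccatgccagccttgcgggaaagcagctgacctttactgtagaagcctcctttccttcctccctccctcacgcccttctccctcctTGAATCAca
Mmp12: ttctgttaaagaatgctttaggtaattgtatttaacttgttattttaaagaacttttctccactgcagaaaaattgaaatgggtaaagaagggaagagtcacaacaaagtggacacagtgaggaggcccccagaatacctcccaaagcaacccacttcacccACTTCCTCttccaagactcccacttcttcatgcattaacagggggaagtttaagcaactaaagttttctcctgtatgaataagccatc
Fbp1: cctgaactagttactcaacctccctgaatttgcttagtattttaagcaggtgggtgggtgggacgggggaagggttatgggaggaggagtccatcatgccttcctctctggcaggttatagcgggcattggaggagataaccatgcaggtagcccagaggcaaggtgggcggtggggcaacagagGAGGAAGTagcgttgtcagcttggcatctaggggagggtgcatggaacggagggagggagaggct
Counted back from the start, the matches lie at -22 to -16 in C3ar1, -64 to -58 in Ecm1, -9 to -3 in Trem2, -88 to -81 in Mmp12 and -65 to -58 in Fbp1. In Mmp12 the capitals are the PU.1 letters of the opposite strand.

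Several genes with very large changes had next to no counts in naive cells. Fbp1, the gluconeogenic fructose bisphosphatase (ENSMUSG00000069805, chromosome 13, 62864753 to 62888282, minus strand), had no count in the naive libraries and was at 96.9, 189, 80.7 and 44.5 CPM in Siglec F-low cells. Against a floor of 3 counts over the naive group it was at least 2406-fold higher. Npy, neuropeptide Y, had no naive count either, was at 13.7 to 22.9 CPM, and was at least 392-fold higher on the same floor. Rnase2a, a ribonuclease of the eosinophil-associated family with close paralogs, had 1 naive count in all and was at 33.3, 80.5, 30.2 and 17.5 CPM, highest in replicate 2. Awat1, an enzyme of wax ester synthesis, was at 1.63, 0.0675, 0.258 and 0.172 CPM against 57.8 to 128 CPM, and its highest naive value was that of replicate 1. Rai14, an actin-associated protein, was at 0 to 0.206 CPM against 17.7 to 25.7 CPM (7.84 ± 0.44, adjusted p 1.10e-11), and rose by 8.82 without naive replicate 3. The floor covers counting error only.

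Chemokine ligands had 8 of 24 tested members higher and 3 lower (45.8%, beside 34.7% of all genes), with a median of 0.69. Ccl6, abundant in both groups, was at 3003 to 4803 CPM against 7148 to 9490 CPM (1.16 ± 0.14, adjusted p 1.31e-06). Ccl9 was at 42.4 to 86.8 CPM against 267 to 374 CPM (2.56 ± 0.28, adjusted p 2.23e-07). Cxcl16, the ligand of CXCR6, was at 5.47 to 6.86 CPM against 32.1 to 36.8 CPM (2.49 ± 0.14, adjusted p 8.70e-12). Ccl24, which attracts eosinophils, was at 0.0545, 0, 0.0516 and 0.172 CPM in naive and 2.98, 34.5, 3.44 and 1.63 CPM in Siglec F-low cells. Ccl17, a ligand of CCR4 on T cells, was at 2.07, 1.89, 2.37 and 1.15 CPM against 25.8, 77.5, 16.7 and 23.7 CPM. Siglec F-low replicate 2 was the highest for both, and their changes of 7.08 ± 1.10 and 4.25 ± 0.45 were 4.97 and 3.60 without it and naive replicate 1, each past the threshold. Cx3cl1, fractalkine, fell by 0.99 ± 0.12, from 66.1 to 71.8 CPM to 31.3 to 35.1 CPM, and Cxcl14 fell by 1.04 ± 0.27. Of 19 chemokine receptors 6 were higher and 2 lower (42.1%, beside 34.7% of all genes), with a median of -0.12. Cxcr1 was at 9.59 to 25 CPM against 127 to 175 CPM (3.29 ± 0.30), while Cxcr5 fell by 1.49 ± 0.25.

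Genes of alternative activation, the state that IL-4 and IL-13 evoke, had 15 of 26 members higher and 3 lower, with a median of 0.46. Several are also in other lists, among them Arg1, Chil3, Ccl17 and Ccl24. Cd209a, Myc and Egr2 were the lower ones, at -1.49, -1.14 and -0.69 without naive replicate 1 and Siglec F-low replicate 2. Retnla, a resistin-like secreted protein, was at 1.7 to 4.08 CPM in naive and 25.9, 80.2, 17.6 and 16.6 CPM in Siglec F-low cells (3.59 ± 0.43, adjusted p 9.22e-07). It was highest in Siglec F-low replicate 2, and the change was 2.67 without that library and naive replicate 1. Irf4, a transcription factor of this state, overlapped at 10.5 to 12.1 and 7.78 to 14.3 CPM (0.10 ± 0.18, adjusted p 0.689).

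Complement genes had 12 of 21 tested members higher and 3 lower, with a median of 0.67. C4b was at 1.09, 1.22, 1.19 and 1.9 CPM in naive and 15.5, 16.6, 12.6 and 25.2 CPM in Siglec F-low cells (3.69 ± 0.30, adjusted p 2.89e-09). C5ar1, the receptor of the fragment C5a, went lower, from 531, 545, 537 and 599 CPM to 164, 186, 174 and 173 CPM (-1.67 ± 0.20, adjusted p 1e-06). The receptors of C3a and C5a changed in opposite directions, each with no overlap. Per kilobase the level of C5ar1 remained above that of C3ar1 in Siglec F-low cells, at 67.7 against 5.27 CPM. Cd55, which protects cells from complement, fell by 1.10 ± 0.29.

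Scavenger, lectin and efferocytosis receptors had 26 of 60 tested members higher and 12 lower. Msr1, a scavenger receptor for modified lipoproteins, was at 12.7, 10.7, 12.6 and 12.2 CPM in naive and 117, 128, 111 and 91.6 CPM in Siglec F-low cells (3.21 ± 0.27, adjusted p 5.74e-09). Cd93, a lectin-like receptor, was at 73.9, 15.5, 20.3 and 21.9 CPM against 238 to 289 CPM (2.93 ± 0.42, adjusted p 8.22e-06), and rose by 3.73 without naive replicate 1 and Siglec F-low replicate 2. Itgb3, an integrin chain, rose by 1.69 ± 0.26. Tlr5, the flagellin receptor, was at 36.2 to 47.6 CPM against 10.2 to 17.8 CPM (-1.71 ± 0.19, adjusted p 3.23e-07). Siglece, an inhibitory Siglec, fell by 1.17 ± 0.13, and Axl, a receptor tyrosine kinase that helps clear dying cells, fell by 0.45 ± 0.07.

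Lysosomal genes were higher in 39 of 48 tested cases and lower in 0, with a median of 0.51. Ctsd, cathepsin D, was at 6561 to 9342 CPM against 15883 to 18262 CPM (1.16 ± 0.10, adjusted p 6.92e-09). Psap, the saposin precursor, rose by 1.13 ± 0.09, and Ctsb, cathepsin B, rose by 1.21 ± 0.08. Summed over the list, lysosomal genes held 32334 to 38780 CPM in naive cells, 40994 to 46918 in young asbestos Siglec F-high cells and 61274 to 69618 in Siglec F-low cells. Sterol and fatty acid synthesis had 26 of 34 tested members higher and 1 lower, with a median of 0.67. Sqle, an enzyme of cholesterol synthesis, was at 35.9 to 40.1 CPM against 78.7 to 83.9 CPM (1.08 ± 0.12, adjusted p 1.58e-07). Fads1, a fatty acid desaturase, rose by 1.65 ± 0.16, while Elovl6, which lengthens fatty acids, fell by 1.47 ± 0.26. Genes of lipid uptake and storage were split, 18 of 43 higher and 8 lower with a median of 0.08. Fabp5 rose by 2.15 ± 0.16 and the sterol sensor Nr1h3 rose by 0.95 ± 0.09, while Abca1, which exports cholesterol, fell by 0.53 ± 0.13.

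Of 25 endoplasmic reticulum chaperone genes 22 were higher and 1 lower, with a median of 0.45. Hspa5, the chaperone BiP, was at 1041, 1319, 1179 and 1179 CPM in naive and 2055, 2180, 1923 and 1745 CPM in Siglec F-low cells (0.74 ± 0.11, adjusted p 7.62e-06). Xbp1, a transcription factor that drives such chaperones, fell by 0.36 ± 0.06. The integrated stress response had 10 of 38 tested members higher and 5 lower, with a median of 0.07. That is 39.5%, beside 34.7% of all genes. Asns, asparagine synthetase, rose by 1.83 ± 0.24, and Slc7a11, the cystine importer and also on the NRF2 list, rose by 2.70 ± 0.38. Atf3, Slc7a5, Ppp1r15b and Sesn2 were lower, by -0.62, -0.53, -0.42 and -0.38 without naive replicate 1 and Siglec F-low replicate 2. Proteasome genes had 13 of 43 higher and 0 lower (30.2%, beside 34.7% of all genes). That count was 7 without Siglec F-low replicate 1, 8 without naive replicate 4, 30 without naive replicate 2, 7 with only the 8 libraries, 21 with a replicate block and 1 with all 24 libraries. Iron and NRF2 genes had 22 of 38 tested members higher and 2 lower. Slc11a1, the metal transporter of phagosomes, was at 3.49 to 6.28 CPM against 40.6 to 46.1 CPM (3.17 ± 0.22, adjusted p 1.53e-10). Fth1, ferritin heavy chain, rose by 0.68 ± 0.13. Glycolysis and hypoxia genes had 18 of 33 tested members higher and 3 lower, and the glucose transporter Slc2a1 was at 22.5 to 24.7 CPM against 60.7 to 72.9 CPM (1.43 ± 0.12, adjusted p 2.89e-09).

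Immediate early genes, which cells induce within minutes of a stimulus, had the lowest median of the functional lists, -0.62, with 20 of 31 lower and 2 higher. Egr1 was at 186, 211, 319.9 and 327 CPM in naive and 49.8, 80.9, 93 and 85.4 CPM in Siglec F-low cells (-1.75 ± 0.30, adjusted p 8.42e-05). Jun, a subunit of AP-1, was at 568 to 837 CPM against 268 to 393 CPM (-1.09 ± 0.12, adjusted p 4.70e-07). Fos, its partner, fell by 0.43 ± 0.11. Hspa1b and Hspa1a, near-identical heat shock genes between which reads may be split, fell by 2.67 ± 0.37 and 2.04 ± 0.34. The list summed to 13513 to 14571 CPM in naive, 9818 to 11742 in young asbestos Siglec F-high and 9100 to 9974 in Siglec F-low cells. Handling during sorting can also induce such genes, and its part was not tested.

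Of 68 other transcription factors, some also on the lists above, 17 were higher and 26 lower. Epas1, a hypoxia-inducible factor, was at 53.1, 24.4, 17.1 and 23.3 CPM in naive and 141 to 192 CPM in Siglec F-low cells (2.49 ± 0.25, adjusted p 5.23e-08), with naive replicate 1 the highest of its group, and rose by 2.96 without naive replicate 1 and Siglec F-low replicate 2. Id3 and Id1, inhibitors of helix-loop-helix factors, were lower: Id3 fell by 1.98 ± 0.33 and Id1 fell by 1.55 ± 0.18. Klf2, which restrains inflammatory genes, fell by 0.99 ± 0.14, and Runx1 fell by 0.86 ± 0.11.

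CSF1 and GM-CSF keep macrophages alive and growing. Csf1 (ENSMUSG00000014599, chromosome 3, 107741048 to 107760469, minus strand) was at 1.42, 1.49, 1.39 and 2.07 CPM in naive and 22.4, 32.2, 33.8 and 28 CPM in Siglec F-low cells (4.19 ± 0.24, adjusted p 1.13e-11). Its receptor Csf1r was at 378 to 391 CPM against 409 to 444 CPM and missed the threshold (0.17 ± 0.07, adjusted p 0.0514). Csf2ra, a chain of the GM-CSF receptor, was at 692 to 934 and 764 to 948 CPM (0.09 ± 0.09, adjusted p 0.452). Csf3r, the receptor of G-CSF, fell by 1.76 ± 0.20, and Tgfbr1, a TGF-beta receptor, fell by 0.44 ± 0.08. Tgfbr2, another TGF-beta receptor, rose, by 0.48 without naive replicate 1 and Siglec F-low replicate 2. The list of colony-stimulating factor and TGF-beta receptor genes had 2 of 14 tested members higher and 3 lower. That is 35.7%, beside 34.7% of all genes. Cell cycle genes had 23 of 45 higher and 1 lower, none by 2-fold. Mki67, a proliferation marker, was at 111 to 139 CPM against 147 to 177 CPM (0.37 ± 0.11, adjusted p 0.00841).

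Genes of the MHC class II pathway had 3 of 17 higher and 5 lower (47.1%, beside 34.7% of all genes). H2-Ob, H2-DMb2, Ciita and H2-DMa were lower. They differed by -1.37, -1.20, -0.84 and -0.74 without naive replicate 1 and Siglec F-low replicate 2, each past the threshold. These libraries were left out after the data were seen. Naive replicate 1 was the lowest naive library for Cd74, H2-Aa, H2-Ab1 and H2-Eb1, so leaving it out favours a fall of those genes. The higher ones were Lgmn, Ctss and Ifi30. Without the same libraries Lgmn rose by 1.89, while Ctss and Ifi30 differed by 0.22 and 0.23 and missed the threshold. H2-Aa, a chain that presents peptides to T cells, was at 151, 401, 374 and 373 CPM in naive and 263 to 299 CPM in Siglec F-low cells. The difference of -0.21 ± 0.20 (adjusted p 0.437) was -0.46 (adjusted p 0.0233) without naive replicate 1 and Siglec F-low replicate 2. Of 35 interferon-stimulated genes 6 were higher, 1 lower and 28 past no threshold, so 20% passed beside 34.7% of all genes. Oas1g, close in sequence to Oas1a, was at 0.0516 to 0.49 CPM against 2.35 to 3.83 CPM (3.63 ± 0.48, adjusted p 3.54e-06), and rose by 4.33 without the same 2 libraries. Inflammatory genes had 14 of 38 tested members higher and 8 lower. Ptgs1, cyclooxygenase 1, was at 6.75, 4.05, 3.92 and 4.37 CPM against 61.4 to 80.1 CPM (3.88 ± 0.21, adjusted p 8.70e-12). Nlrp3, an inflammasome sensor, fell by 0.90 ± 0.22, and the cytokine Il18 fell by 0.63 ± 0.10. Tnfsf13b, the B cell survival factor BAFF, fell by 1.64 ± 0.35.

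The plot of the gene lists sets their shares beside those of all genes. Lists share members, and the counts describe them without a test.

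**Figure D4:**
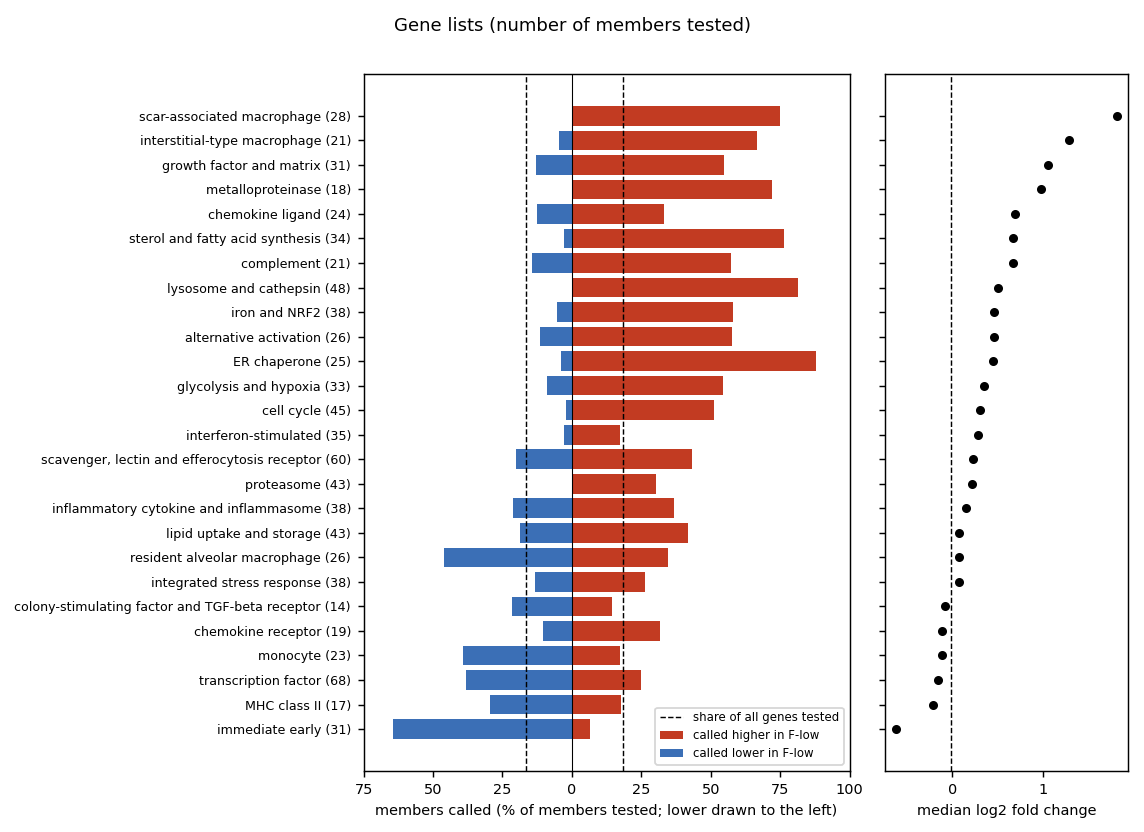
Left, for 26 functional and macrophage lists (markers of other cell types are not drawn), the percentage of each list's tested members (their number in parentheses) higher in Siglec F-low cells (red) and lower (blue, drawn to the left), with dashed lines at the 18.3 and 16.4% of all genes tested; right, the list's median log2 fold change, with a dashed line at the median of all genes. Red bars are longest for endoplasmic reticulum chaperone, lysosome and sterol synthesis genes, among the lists drawn the blue bar is longest for immediate early genes, and resident markers extend to both sides.

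Among genes lower in Siglec F-low cells, those of smallest p changed by less than the top genes on the higher side. Pilra, an inhibitory receptor of myeloid cells, was at 228, 279.6, 226 and 214 CPM in naive and 96, 87.5, 93.2 and 97.6 CPM in Siglec F-low cells (-1.34 ± 0.09, adjusted p 2.41e-10). Fam129a fell by 1.36 ± 0.10, Gpr155 fell by 1.37 ± 0.11, and Fmnl1, a formin of the leukocyte cytoskeleton, fell by 0.83 ± 0.07. Trerf1 fell by 1.37 ± 0.10, Dgkg, a diacylglycerol kinase, fell by 2.04 ± 0.17, the semaphorin Sema6d fell by 1.73 ± 0.14 and Zfp395 fell by 1.63 ± 0.14. Epcam, an adhesion molecule best known from epithelium, was at 50.3, 179, 149 and 147 CPM against 21.9, 27.5, 23.4 and 32.2 CPM (-2.32 ± 0.29, adjusted p 1.20e-06). Itgad, an integrin chain, was at 7.52, 39, 45 and 44 CPM against 4.96, 6.95, 6.44 and 6.75 CPM (-2.42 ± 0.38, adjusted p 2.65e-05). For both, naive replicate 1 lay nearest to the Siglec F-low values. Without it and Siglec F-low replicate 2 the changes were -2.61 and -2.81.

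Markers of other cell types were counted in the same way, beside the 34.7% of all genes tested that passed. B and plasma cell transcripts were lower in 13 of 15 cases and higher in 0. Their sum was 125 to 234 CPM in naive, 57.4 to 77.7 in young asbestos Siglec F-high and 65.5 to 89 in Siglec F-low cells, and Cd79a fell by 1.23 ± 0.29. T and NK cell markers had 1 of 19 tested higher and 3 lower (21.1%), at overlapping sums of 352 to 446 and 345 to 360.3 CPM. Cd2, also on the resident list, made up 84.6% of the naive sum. The count of 4 was 2 with only the 8 libraries of the groups compared, 7 without naive replicate 2 and 8 without naive replicate 1 and Siglec F-low replicate 2. Of 15 neutrophil markers 8 were tested, 4 higher and 1 lower, with a median of 1.06. S100a8, Retnlg, Cxcr2 and Mmp8 were higher, by 1.945, 1.63, 1.27 and 1.09 without naive replicate 1 and Siglec F-low replicate 2. Ly6g and Elane were at 0 in all 8 libraries. The sums of the neutrophil markers were 66.7 to 98.4 and 100 to 104 CPM. Csf3r, the member that fell, made up 54.5% of the naive sum. Eosinophil, basophil and mast cell markers summed to 0.599 to 2.47 and 3.56 to 7.32 CPM, with 3 of 4 tested members higher. Epithelial markers had 6 of 14 tested higher and 1 lower, with a median of 1.06, at overlapping sums of 197 to 301 and 194 to 279.8 CPM. Epcam, the member that fell, made up 50.7% of the naive sum. The count of 7 was 3 without Siglec F-low replicate 2, and 4 without naive replicate 3 or with only the 8 libraries. Sftpc, the surfactant gene of type II cells, was at 6.92, 5.54, 3.3 and 11.2 CPM against 16.7, 40, 7.32 and 8.08 CPM (1.42 ± 0.43, adjusted p 0.0133), and differed by 0.66 (adjusted p 0.186) without Siglec F-low replicate 2. Endothelial and mesenchymal markers had 4 of 15 tested higher and 0 lower (26.7%), with Lum at 0 throughout, at overlapping sums of 45.7 to 57.7 and 47.7 to 70.1 CPM. The count of 4 was 1 without naive replicate 1, naive replicate 3 or Siglec F-low replicate 1. Dendritic cell markers had 2 of 16 higher and 2 lower (25%), at overlapping sums of 204 to 275 and 229 to 270.1 CPM. The part of such cells in the results was not tested, and in bulk samples fewer cells of a type and less RNA per cell cannot be told apart.

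Young asbestos Siglec F-high cells share libraries with both contrasts given here, so the values stand side by side and no overlap is read from them. Against naive Siglec F-high cells 690 genes (5.06%) passed the threshold, and 1638 (12.0%) passed in Siglec F-low against Siglec F-high cells of exposed mice. Some genes differed in both. Arg1 was at 15.8, 8.44 and 5.8 CPM in this group, with a log2 difference of 4.02 by exposure and 3.997 by sort. Mmp12 was at 92.2, 44.1 and 42 CPM, with 3.52 by exposure and 3.38 by sort, and Mfge8 at 120.0, 66.4 and 83.3 CPM, with 2.89 and 2.68. Other genes passed the threshold between the sorts and not by exposure. Apoe was at 112, 114 and 119 CPM beside 96.4, 113, 116 and 116 CPM in naive and 246, 354, 373 and 397 CPM in Siglec F-low cells, with 0.06 by exposure and 1.57 by sort. Itgam was at 14, 10.1 and 9.42 CPM, with 0.17 and 1.95. Still other genes passed by exposure and not between the sorts. C4b was at 14.6, 10 and 18.7 CPM, with 3.41 by exposure and 0.28 by sort. Klf2 was at 76.1, 109 and 92.1 CPM, with -0.99 and 0.01, and Jun at 329, 422 and 376 CPM, with -0.90 and -0.19. Missing the threshold in one contrast does not show that nothing differed there.

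The same comparison in old mice used 8 other libraries, and 4181 genes passed the threshold. As a description across genes, which are no replicates of each other, the Pearson and Spearman correlations of the log2 fold changes in young and old mice were 0.784 and 0.697. In the same direction 2903 genes passed at both ages, 61.4% of those in young and 69.4% of those in old mice, and 17 passed in opposite directions. The log2 fold change of Arg1 was 8.02 in young and 9.28 in old mice, that of Spp1 3.31 and 2.25, and that of C1qb 3.85 and 4.63.

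The age difference itself passed the test in 74 genes (0.543%), 18 with a higher and 56 with a lower log2 fold change in old mice, and 1510 had an unadjusted p under 0.05. Of the 56, 50 had a positive log2 fold change in young mice, whether or not it passed the threshold. The young change enters the difference with a minus sign, so choosing genes by a negative difference favours this. Ide, the insulin-degrading enzyme, was at 62 ± 3.66 CPM in young naive and 97.4 ± 3.1 CPM in young Siglec F-low cells (SD, n = 4, as for the other means here), but at 98.5 ± 5.19 CPM in old naive and 66.1 ± 5.02 CPM in old Siglec F-low cells. The sign of its change turned with age (difference -1.23 ± 0.09, adjusted p 2.01e-08). Ecm1 went from 14.5 ± 0.926 to 106 ± 8.7 CPM in young and from 71.3 ± 15.7 to 215 ± 13.6 CPM in old mice (-1.28 ± 0.17, adjusted p 4.01e-04). Mfge8 went from 12.1 ± 1.6 to 575 ± 28.2 CPM in young and from 44.3 ± 8.26 to 757 ± 190.4 CPM in old mice (-1.47 ± 0.25, adjusted p 0.00444). Both began from a higher mean in old naive cells. Sbk2 was at mean levels of 5.59 and 17.9 CPM in young and 16.5 and 16.8 CPM in old mice (-1.64 ± 0.19, adjusted p 6.68e-05), and the lipase Lipn at 0.249 and 5.92 against 4.83 and 10.2 CPM (-3.41 ± 0.45). The collagen chain Col4a1 was at 0.917 and 15.4 CPM in young and 104 and 172 CPM in old mice (-3.33 ± 0.75, adjusted p 0.0408). In the other direction, Irf4 was at 11.4 ± 0.705 and 12.3 ± 3.03 CPM in young but 11.3 ± 3.35 and 39.8 ± 5.82 CPM in old mice (1.71 ± 0.24, adjusted p 9.97e-04). Cish, an inhibitor of cytokine signalling, was at 45.2 and 35.7 CPM in young and 35.2 and 63.2 CPM in old mice (1.19 ± 0.20). Pparg differed by 0.28 in young and -0.35 in old mice (-0.63 ± 0.13, adjusted p 0.0245). The count of 74 was 1 with all 24 libraries. It was 46 without old Siglec F-low replicate 3, 49 and 48 without young Siglec F-low replicates 1 and 2, 43 without young naive replicate 3 or 4, and 112 without young naive replicate 2.

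**Figure D5:**
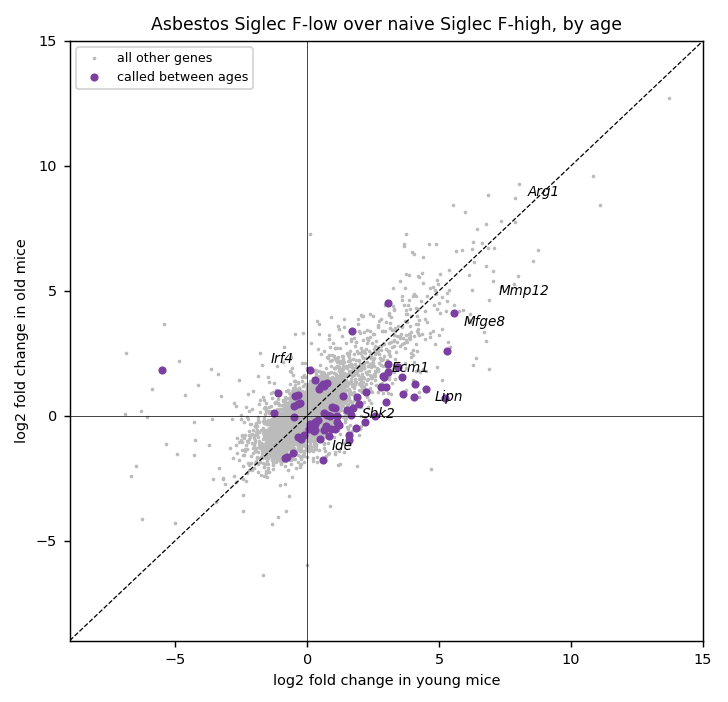
Log2 fold change of asbestos Siglec F-low over naive Siglec F-high cells in old mice (vertical) against young mice (horizontal), 1 point per gene tested; the 74 genes whose change differed with age are purple and the dashed line marks equal change. Most purple points lie below the line, with Mfge8 and Lipn among them, and Irf4 lies above it.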

How the data were processed

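RNA-seq was deposited by the authors as 1 table of raw counts per Ensembl gene ID, 43430 IDs in 24 libraries. Per the labels' protocols, libraries were poly(A)-selected. Per the submitters' processing notes, bcl2fastq 2.19.1, FastQC, Trimmomatic 0.36, STAR 2.6.0, HTSeq 0.11.2 and mm10 were used. The strand setting of counting is not given in the sources used here, so overlapping antisense genes cannot be told apart. GENCODE M21 (GRCm38) named 42546 of the IDs.

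Genes were kept by edgeR's filterByExpr (minimum count 10, minimum total 15), scaled by TMM and tested with edgeR 4.0.16's quasi-likelihood test (R 4.3.3) with 1 term per group and Benjamini-Hochberg adjustment over 13629 genes. The fit held 22 libraries. Replicate 3 of young and of old asbestos Siglec F-high, which stand apart from their groups, were left out. CPM use the TMM-scaled library sizes. The 14385568 to 17994661 counts per library set the precision of low genes. Alternatives used DESeq2 1.42.0, limma 3.58.1 (voom), other filters, sets of libraries and a replicate block.

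Named genes were a fixed set, the 8 of smallest p and the 6 of largest change in each direction, and up to 4 per list and direction. Added to them were the 4 of smallest p for age in each direction, and others chosen after their values were seen. The 8 were taken only from genes with given names whose groups of 4 did not overlap. The 6 needed a mean of at least 10 CPM in the higher group, and list members 5 CPM in either group. Some genes that the rule names are not reported here. The members and lists were chosen with earlier results of these data known. Pairs of replicates within a group differed by more than sampling noise.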

Additional observations from a re-analysis of the deposited data

Results flagged for a closer look

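Of 416 groups of 4 libraries, for 208 named genes, 36 held a library that lay far from its 3 neighbours by Dixon's ratio. For genes chosen without regard to their values chance gives about 1 in 20. Some of these genes were chosen after their values were seen, so that rate is no yardstick for the 36. The flag of Rnase2a rests on 1 naive count. Values are CPM, with the range of the 3 other libraries in parentheses. In young asbestos Siglec F-low replicate 1 the values were Csf1r 409 (439 to 444), Fabp5 482 (392 to 403), Il7r 41.3 (55.5 to 57.7), Sbk2 20.1 (16.9 to 17.3) and Socs3 40.4 (76.6 to 83.1). In young asbestos Siglec F-low replicate 2 the values were Arg1 224 (138 to 144), Ccl17 77.5 (16.7 to 25.8), Ccl24 34.5 (1.63 to 3.44), Cx3cl1 31.3 (34.8 to 35.1), Fads1 23.2 (29.2 to 30), Retnla 80.2 (16.6 to 25.9) and Slc2a1 72.9 (60.7 to 61.8). In young asbestos Siglec F-low replicate 3 the values were Cd93 289 (238 to 243) and Ppp1r15b 232 (214 to 217). In young asbestos Siglec F-low replicate 4 the values were Hspa1b 3.19 (5.32 to 5.76), Irf4 7.78 (13.3 to 14.3) and Zfp395 10.2 (9.22 to 9.37). In young naive Siglec F-high replicate 1 the values were Awat1 1.63 (0.0675 to 0.258), Axl 2546 (2211 to 2248), Ccl9 86.8 (42.4 to 47.1), Cd93 73.9 (15.5 to 21.9), Gpnmb 692 (369 to 377), H2-Aa 151 (373 to 401), Hpgds 6.26 (3.71 to 3.92), Itgad 7.52 (39 to 45), Marco 644 (128 to 137), Myc 46.2 (70.1 to 74.5) and Ptgs1 6.75 (3.92 to 4.37). In young naive Siglec F-high replicate 2 the values were Chil3 15604 (11186 to 11694), Cx3cl1 71.8 (66.1 to 66.9), Ifi30 575 (468 to 482) and Sesn2 42.2 (48.2 to 49.2). In young naive Siglec F-high replicate 4 the values were C4b 1.9 (1.09 to 1.22), Csf1 2.07 (1.39 to 1.49), Gpx3 3.51 (1.15 to 1.53) and Rnase2a 0.0575 (0).

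For 16 named genes the log2 fold change of asbestos Siglec F-low over naive Siglec F-high cells differed between old and young mice in edgeR's quasi-likelihood test of the difference. The difference, old minus young, was positive for C1qc 1.48 (3.04 in young, 4.52 in old), Cish 1.19 (-0.34 in young, 0.84 in old), Irf4 1.71 (0.10 in young, 1.82 in old), Itgb3 1.68 (1.69 in young, 3.37 in old), Rnf19b 0.64 (0.61 in young, 1.26 in old) and Slc7a1 0.79 (-0.28 in young, 0.51 in old). It was negative for Abca1 -0.96 (-0.53 in young, -1.48 in old), Cd63 -1.33 (3.07 in young, 1.74 in old), Col4a1 -3.33 (4.06 in young, 0.73 in old), Ecm1 -1.28 (2.87 in young, 1.59 in old), Ide -1.23 (0.65 in young, -0.58 in old), Lipn -3.41 (4.49 in young, 1.08 in old), Mfge8 -1.47 (5.56 in young, 4.09 in old), Nr1h3 -0.59 (0.95 in young, 0.36 in old), Pparg -0.63 (0.28 in young, -0.35 in old) and Sbk2 -1.64 (1.67 in young, 0.03 in old). With all 24 libraries in the fit 1 gene of all tested passed this test.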

How the results depend on the processing

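The count of 4729 genes was 4936 with DESeq2, 4791 with limma voom, 4730 with RLE scaling, 4310 without a filter and 3746 with only the 8 libraries. With all 24 libraries it was 1666 (1069 higher, 597 lower), and 207 genes were at least 2-fold lower. Leaving out each library in turn gave 3901 to 5102 genes (2116 to 2716 higher, 1775 to 2386 lower), and at 2-fold or more 681 to 716 higher and 328 to 443 lower. Without naive replicate 1 and Siglec F-low replicate 2, a choice made after seeing the data, it was 3895.

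The age count of 74 moved more. It was 207 (76 higher and 131 lower in old mice) with DESeq2, 219 (74 higher and 145 lower in old mice) without a filter, 45 (9 higher and 36 lower in old mice) with only the groups compared and 1 (0 higher and 1 lower in old mice) with all 24 libraries. Leaving out each library gave 43 to 112 (8 to 29 higher, 32 to 83 lower). The cause was not tested.

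With the replicate number as a block 5273 genes passed, 4695 of them shared with the 4729, and the age count was 180 (60 higher and 120 lower in old mice). Deviations of same-numbered libraries correlated at 0.125, 0.117, 0.159 and 0.0609. Naive replicates 2, 3 and 4 each correlated best with another number, so the numbers were not taken as pairs. Replicates 3 and 4 still went together across the groups. Naive 3 and 4 correlated with Siglec F-low 3 and 4 at 0.0609 to 0.170. Naive 2 correlated with Siglec F-low 1 and 2 at 0.147 and 0.117, and with 3 and 4 at -0.188 and -0.129. Naive 1 correlated at 0.125 with Siglec F-low 1 and at -0.0632 with 2. No label names a batch, and a term for this split was not tested.

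Of 3520 pairs of a named value and an alternative, 3373 kept direction and side of the threshold, 124 lost the threshold, 20 gained it and 3 turned sign. Ccr2 (-0.12) ran from -0.269 to 0.0309 with 1 library left out. Irf4 (0.10) was -0.0214 without naive replicate 1 and Siglec F-low replicate 2. None of these values passed the threshold. Of 528 pairs of a list count and an alternative 40 moved over 1.5 times, 17 of them outside the fit of all 24 libraries, for markers of T cells and NK cells (4, moved to 2 to 8), markers of endothelium and mesenchyme (4, moved to 1 to 2), markers of epithelium (7, moved to 3 to 4), monocyte (13, moved to 8) and proteasome (13, moved to 7 to 30). In that wider fit the number of members past the threshold fell for resident alveolar macrophage from 21 to 13, monocyte from 13 to 6, interstitial-type macrophage from 15 to 9, MHC class II from 8 to 4, lipid uptake and storage from 26 to 17, sterol and fatty acid synthesis from 27 to 16, interferon-stimulated from 7 to 4, cell cycle from 24 to 8, proteasome from 13 to 1, ER chaperone from 23 to 14, integrated stress response from 15 to 6, immediate early from 22 to 13, transcription factor from 43 to 21, colony-stimulating factor and TGF-beta receptor from 5 to 2, scavenger, lectin and efferocytosis receptor from 38 to 20, glycolysis and hypoxia from 21 to 13, iron and NRF2 from 24 to 14, inflammatory cytokine and inflammasome from 22 to 12, markers of B cells and plasma cells from 13 to 6, markers of T cells and NK cells from 4 to 1, markers of dendritic cells from 4 to 2, markers of epithelium from 7 to 4 and markers of endothelium and mesenchyme from 4 to 1. Low counts limit genes near 1 CPM, and exposure cannot be told apart from sort.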
